A study of Homo sapiens with 4 samples.

Results

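Histone genes were measured by 82 of the 24526 probes of an Illumina HumanRef-8 v3.0 bead array, which covers annotated human transcripts. These 82 probes stood for 78 of the 16922 genes that the array's annotation names, and are all those whose annotated symbol begins with HIST1H, HIST2H, HIST3H, HIST4H, H2AF, H3F3 or H1F, or with the names these genes carry now, so that the rule reads names only. Current symbols are used here, with the array's older name given where a gene is first described. Of the probes, 64 belonged to replication-dependent histones (62 genes) and 18 to variant histones (16 genes). The class was also read from names alone. A gene with a HIST1H, HIST2H, HIST3H or HIST4H name counted as replication-dependent, and whether each is made in S phase was not checked. The variants include H2AX by its name, although its gene is also known to give a replication-dependent mRNA. The set also holds H3P6 (H3F3AP4), a pseudogene that the naming rule takes in. The question here was whether histone transcripts differed between cells that overexpress the miR-146b microRNAs and their controls, and whether the 2 classes of histones moved alike.

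Both cell-lines were derived from A549, a human lung adenocarcinoma cell-line. A549/vec cells carry the empty pLemiR lentiviral vector, and A549/146b cells carry the same vector with an insert for human pre-miR-146b. Both therefore share the lentiviral transduction, the TurboRFP reporter driven by the cytomegalovirus promoter, whose 3′ untranslated region holds the insert, and growth in 2 µg/ml puromycin. Each cell-line is a single puromycin-selected population, so that whatever else differs between these 2 populations and the insert itself cannot be told apart. Each was represented by 2 arrays, which came from separate cultures on 2 occasions, for 4 arrays in all. The insert gives rise to a pair of mature microRNAs, printed from RefSeq (GRCh38.p14) with the seed, bases 2 to 8, in capitals, to show what was overexpressed.
hsa-miR-146b-5p, chr10:102436520-102436542, plus strand: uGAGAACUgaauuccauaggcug
hsa-miR-146b-3p, chr10:102436557-102436578, plus strand: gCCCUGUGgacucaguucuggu

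Histones H2A, H2B, H3 and H4 form the protein core around which nuclear DNA is wound, and the linker histone H1 binds where DNA enters and leaves that core. Replication-dependent histone genes lie in clusters, are made mainly in S phase when new DNA has to be packaged, and give mRNAs that mostly end in a stem-loop in place of a poly(A) tail, although some of these genes also give polyadenylated transcripts. Variant histones lie elsewhere in the genome, are made throughout the cell cycle, and have polyadenylated mRNAs. The kit with which the RNA was labelled is of a kind that primes from poly(A) tails. Many histone genes of a family have nearly identical coding sequences. Probe sequences were not used here, so which of the near-identical genes contributed to a probe's signal is uncertain for all the replication-dependent probes. HIST2H2AA3 and HIST2H4A, for example, each have a duplicate copy in the genome.

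The promoters of the 2 classes differ in letters that were searched for on both strands in RefSeq windows from 250 bases before to 50 bases after each gene's start (GRCh38.p14, 71 of the 78 genes matched). The octamer ATTTGCAT, known as a binding element of the factor POU2F1, was in 14 of 17 promoters of replication-dependent H2B genes and 10 of 14 of H2A genes, in 1 of 9 of H3 genes, in none of 6 of H1 genes and in none of 11 of H4 genes, against 1.8% of all 27305 promoters. The H1 box AAACACA was in all 6 promoters of replication-dependent H1 genes and in 5.76% of all promoters. TATAAA was in 38 of 57 replication-dependent promoters (66.7%) and 4 of 14 variant promoters (28.6%), against 12% of all. CCAAT was in 49 of 57 and 11 of 14, against 35.7% of all. Each motif was counted by itself, whether or not its letters overlapped those of another. To show how the promoters of detected histone genes are built, the 130 bases before the start of 6 of them are printed 5′ to 3′ on the gene's own strand, with each match on either strand to any of the 4 motifs in capitals.
H2BC12, chr6:27146859-27146988, minus strand: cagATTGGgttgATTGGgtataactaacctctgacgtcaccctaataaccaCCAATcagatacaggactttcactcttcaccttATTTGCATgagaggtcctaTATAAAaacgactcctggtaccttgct
H2BC5, chr6:26157991-26158120, plus strand: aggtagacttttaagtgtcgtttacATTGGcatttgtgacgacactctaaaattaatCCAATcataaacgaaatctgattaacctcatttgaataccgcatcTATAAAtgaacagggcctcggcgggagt
H2BC21, chr1:149886683-149886812, minus strand: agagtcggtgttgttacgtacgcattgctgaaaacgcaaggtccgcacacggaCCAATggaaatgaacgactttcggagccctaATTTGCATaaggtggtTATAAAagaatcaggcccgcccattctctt
H1-2, chr6:26056471-26056600, minus strand: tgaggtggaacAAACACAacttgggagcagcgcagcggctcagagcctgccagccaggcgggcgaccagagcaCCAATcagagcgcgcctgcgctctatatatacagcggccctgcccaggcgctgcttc
H3-3A, chr1:226061701-226061830, plus strand: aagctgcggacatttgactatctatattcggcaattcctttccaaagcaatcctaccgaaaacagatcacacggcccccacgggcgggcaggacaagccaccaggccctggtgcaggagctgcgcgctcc
H3-3B, chr17:75779780-75779909, minus strand: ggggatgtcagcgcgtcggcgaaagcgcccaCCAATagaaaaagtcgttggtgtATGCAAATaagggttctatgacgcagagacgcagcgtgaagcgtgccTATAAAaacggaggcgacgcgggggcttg
The H2BC12 stretch holds CCAAT on each strand (as CCAAT and ATTGG), the octamer and TATAAA, whereas the H2BC5 stretch lacks the octamer. The octamer of H3-3B reads ATGCAAAT, that is, on the opposite strand, and H3-3A has none of the 4 motifs in this stretch. Among replication-dependent genes, the octamer was in 6 of 14 detected and in 19 of 43 undetected ones, and TATAAA was in 9 of 14 and in 29 of 43. These matches describe sequence only.

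GenomeStudio's detection p compares a signal with the negative control beads. Probes that passed 0.01 on any of the 4 arrays, 10559 or 43.1% of the whole array, were called detected and were tested. Mean signals before normalization were 394 to 480.1 per array, and 39.2% to 42.1% of probes were detected. The number of arrays limits the precision. A549/vec replicate 1 stood apart, with correlations of its log2 signals of 0.993 to 0.995 with the other arrays, whereas the other 3 arrays had 0.996 to 0.997 among themselves. Of the markers of A549's epithelial origin, 5 of 6 genes were detected (KRT7, KRT8, KRT18, KRT19 and CDH1, not EPCAM), with summed signals of 12025 to 17833 in A549/vec and 11998 to 12743 in A549/146b. No fibroblast marker (6 genes) or endothelial marker (4 genes) was detected, and of 5 leukocyte markers on the array only CD14 was. Any part of these differences in the histone results was not tested. In cell pellets such as these, fewer cells making a transcript and less of it per cell cannot be told apart.

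A smaller share of the histone probes than of the whole array passed the detection limit. Of the 82, 26 (31.7%), for 24 genes, were detected and tested, against 43.1% of all. At a detection p under 0.05 the number was 43 of 82. The share was 16 of 64 (25%) for replication-dependent and 10 of 18 (55.6%) for variant histones. By family, 1 of 6 H1, 5 of 15 H2A, 5 of 19 H2B, 2 of 11 H3 and 3 of 13 H4 probes of the replication-dependent class were detected. In the variant class, detection was at 1 of 3 H1, 7 of 11 H2A and 2 of 4 H3 probes. By cluster, the detected probes were 11 of 53 in HIST1 (chromosome 6), and 4 of 7 in HIST2 and 1 of 3 in HIST3 (both chromosome 1), while the HIST4 probe was not detected. Of the 26, 24 were detected on all 4 arrays and the other 2, for H3C3 and H2AC17, on 3. Of all 10559 tested probes, 9336 were detected on all 4 arrays. The 56 undetected probes had normalized signals of 55.9 to 103, with a median of 67.6. Just outside the limit were H2BC14 and H3C7, both with a lowest detection p of 0.0129, and 17 of the 56 were under 0.05. Such a probe is not well above background, which does not show that its gene is silent. The plot of detected probes by family gives these counts.

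**Figure D1:**
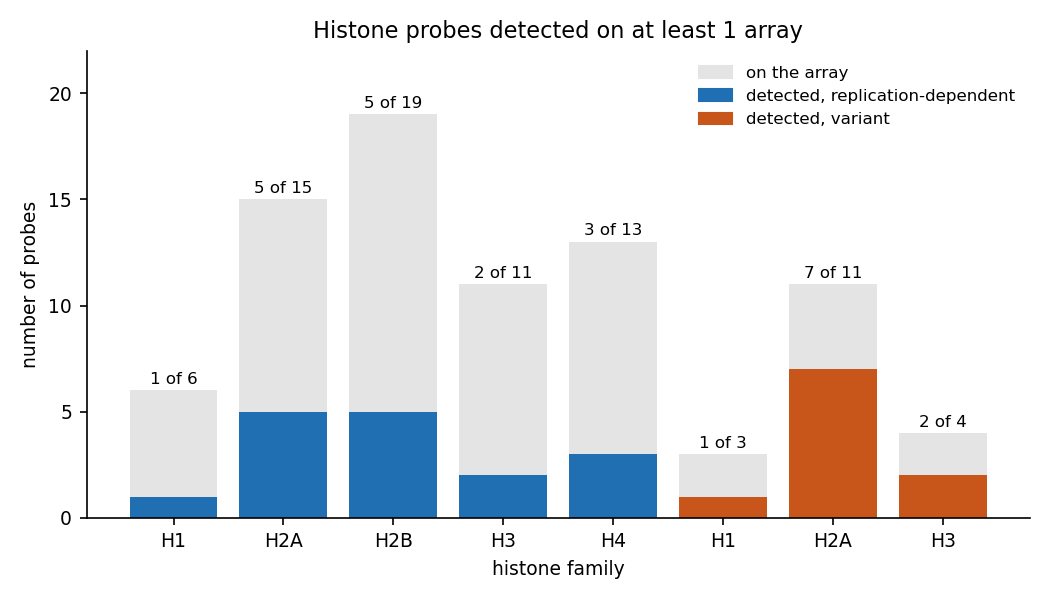
Number of probes on the array (grey bars) and number detected (p under 0.01) on any of 4 arrays (coloured bars), for each family of replication-dependent (blue) and variant (orange) histones. Detection ranged from 1 of 6 for replication-dependent H1 to 7 of 11 for variant H2A.

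None of the 26 histone probes was called different between A549/146b and A549/vec (limma with the occasion as a block, Benjamini-Hochberg adjusted p under 0.05 over all tested probes). Of all tested probes, 98 were called, or 0.928%, of which 46 (0.436%) were higher and 52 (0.492%) lower in A549/146b, so that a set of 26 at the same rate would also hold few or none. The largest histone difference was 0.29 on the log2 scale, and the smallest among called probes was 0.50. Adjusted p-values of the histones ran from 0.389 to 0.998. At an unadjusted p under 0.05, 1 histone passed, H2AC18, against 12.2% of all tested probes. The 95% interval of each log2 difference was 0.28 wide to either side, or 1.21-fold, and over all 26 probes the intervals reached from -0.56 to 0.57. These intervals hold for this normalization and for a spread shared by all probes, and they do not show that any histone transcript was unaltered. With neqc normalization of the signals, the log2 differences of probes of low signal were larger, at 0.48 for H3C3 (unadjusted p = 0.00999, adjusted p = 0.299), -0.30 for H2BC21 and 0.20 for H2AZ2, and again none was called. Of these probes 7 had both A549/146b signals above both A549/vec signals (22% of all tested probes did) and 4 had them below (also 22%). The difference had the same direction on both occasions for 15 of 26, or 57.7%, against 58.4% of all. Without A549/vec replicate 2, the fit (then without the block) had A549/vec replicate 1, the array that stood apart, as its lone control. In that fit H1-10 was lower in A549/146b by a log2 difference of -0.44. Without A549/vec replicate 1 the difference of H1-10 was -0.11.

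The signals of all detected probes are plotted by array. They are normalized intensities on a linear scale, and the level of a probe may not be set against that of another, since probes differ in how they bind.

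**Figure D2:**
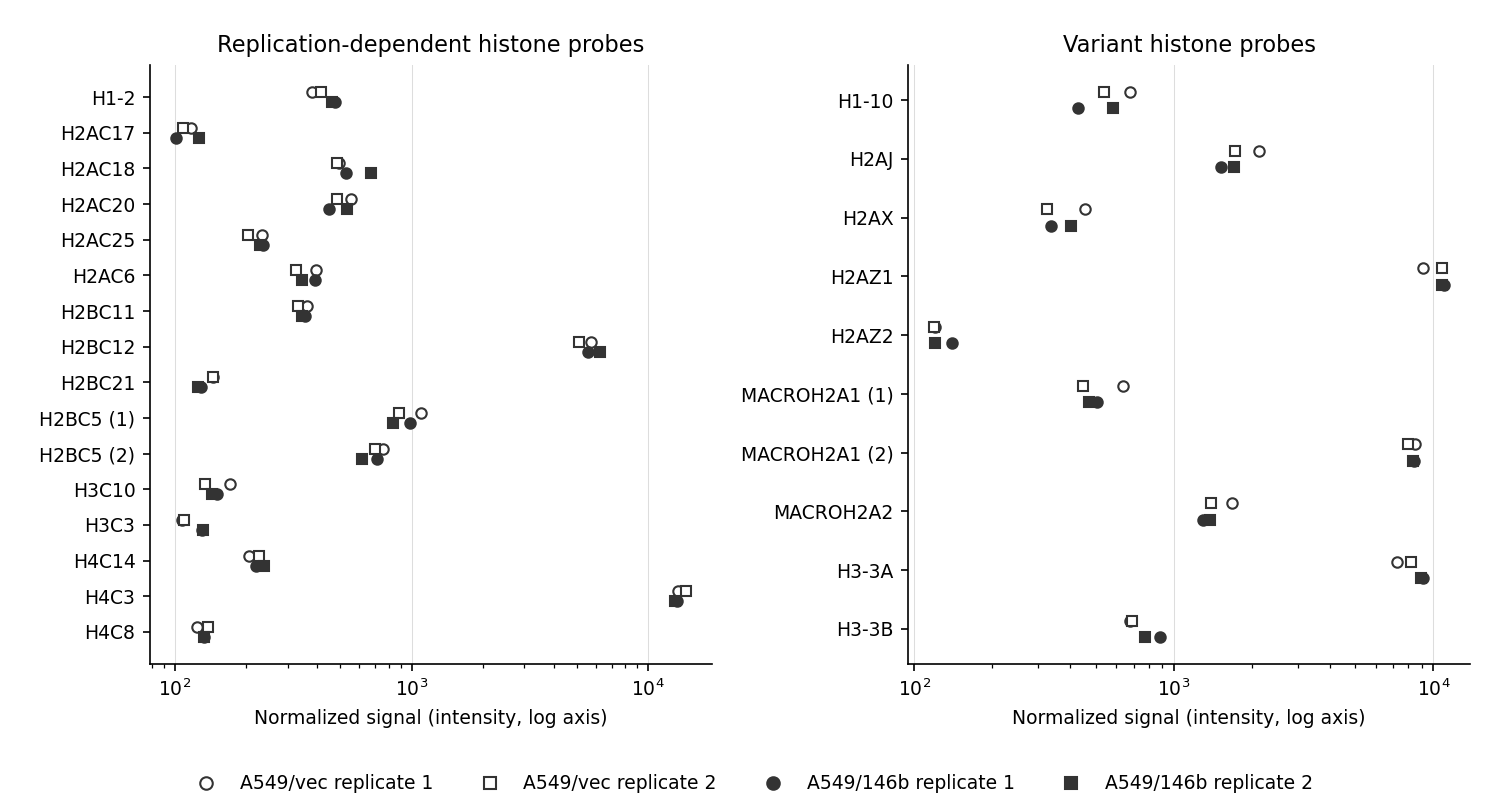
Normalized signal (intensity, log axis) of each detected histone probe on each of the 4 arrays, with A549/vec as open and A549/146b as filled symbols, and replicate 1 as circles and replicate 2 as squares. Genes with 2 detected probes are numbered 1 and 2. Without overlap, 7 probes were higher and 4 lower in A549/146b, where 22% of all tested probes were higher and 22% lower.

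Of the replication-dependent linker histones, only H1-2 (HIST1H1C, chromosome 6) was detected. H1-2 binds linker DNA and helps to compact chromatin. Its signals were 379 and 413 in A549/vec and 475 and 462 in A549/146b (replicates 1 and 2 throughout). Both A549/146b arrays were above both A549/vec arrays. The means were 396 ± 23.7 and 468 ± 9.58 (SD, n = 2 each), a log2 difference of 0.24 ± 0.14 (SE) with an adjusted p of 0.496 in limma.

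Among the core H2A histones, which pair with H2B in the nucleosome, H2AC18 (HIST2H2AA3, chromosome 1) had the smallest p of all histones. Its signals were 492 and 484 in A549/vec, and 528 and 673 in A549/146b. All of A549/146b was higher, but replicate 2 carried most of it, with log2 differences of 0.10 and 0.48 for the 2 occasions in turn. Over both it was 0.29 (95% interval 0.01 to 0.57, unadjusted p = 0.0439, adjusted p = 0.389 in limma). H2AC20 (HIST2H2AC), a neighbour in the same cluster on chromosome 1, gave 555 and 482 in A549/vec and 448 and 534 in A549/146b. These overlapped, and the direction turned between occasions (-0.31 and 0.15). H2AC25 (HIST3H2A, chromosome 1) had 234 and 203 in A549/vec against 235 and 229 in A549/146b, and the cell-lines overlapped. The other 2 detected H2A probes, for H2AC6 and H2AC17, differed by 0.03 and -0.00 on the log2 scale. Adjusted p-values of the 5 H2A probes were 0.389 to 0.998, and for all 5 the duplicates of at least 1 cell-line differed by more than the cell-lines did, as for 71.5% of all tested probes.

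The H2B family had both signs. H2BC12 (HIST1H2BK, chromosome 6), whose promoter stretch is printed above, gave 5701 and 5120.0 in A549/vec and 5557 and 6272 in A549/146b. The cell-lines overlapped, with log2 differences of -0.04 and 0.29 for the 2 occasions in turn (adjusted p = 0.777 in limma over both). H2BC5 (HIST1H2BD, chromosome 6) had 2 detected probes. The first (ILMN_1651496) gave 1099 and 887 in A549/vec and 986 and 834 in A549/146b, and the second (ILMN_1758623) gave 760.5 and 704 against 713 and 617. On each occasion both probes were lower in A549/146b, with log2 differences over both occasions of -0.12 and -0.14, yet each probe's cell-lines overlapped (adjusted p = 0.792 and 0.747 in limma). A further H2BC5 probe, for another of its transcripts, was not detected. H2BC21 (HIST2H2BE, chromosome 1) had 145 in both A549/vec replicates and 129 and 125 in A549/146b. Both A549/146b arrays were below both A549/vec arrays, by -0.17 and -0.22 on the log2 scale, but the adjusted p was 0.625 in limma (-0.30 over both occasions with neqc, adjusted p = 0.527). H2BC11 differed by 0.02.

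H3 histones, which with H4 form the centre of the nucleosome, had 2 detected probes. H3C3 (HIST1H3C, chromosome 6) gave 107 and 109 in A549/vec, and 130.3 and 132 in A549/146b. The 2 cell-lines were fully apart and the occasions alike, with a log2 difference of 0.28 on each, an interval of -0.00 to 0.56 and an adjusted p of 0.411 in limma. With neqc the difference was 0.48 (adjusted p = 0.299). Its signal was close to the limit of detection, which it passed on 3 of 4 arrays. H3C10 (HIST1H3H, chromosome 6) gave 171 and 135 against 151 and 144, so that A549/vec enclosed A549/146b (-0.04, adjusted p = 0.946 in limma).

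Of the H4 histones, H4C3 (HIST1H4C, chromosome 6) gave 13297 and 14452 in A549/vec and 13261 and 12925 in A549/146b. Both A549/146b arrays were lower, though on occasion 1 by almost nothing (log2 differences -0.00 and -0.16, adjusted p = 0.876 in limma). H4C14 (HIST2H4A, chromosome 1) gave 207 and 227 against 219.6 and 238, higher on each occasion by less than its replicates differed. H4C8 differed by 0.03. For all 3 H4 probes the A549/vec duplicates differed by more than the cell-lines.

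Of the variant histones, H3.3 is placed into chromatin outside S phase, often at active genes, and is made from a pair of genes that encode the same protein. H3-3A (H3F3A, chromosome 1) gave 7265 and 8181 in A549/vec and 9134 and 8987 in A549/146b. H3-3B (H3F3B, chromosome 17) gave 679 and 692 against 887 and 775. For both genes each A549/146b array was above each A549/vec array, and the log2 differences on the 2 occasions were 0.33 and 0.14 for H3-3A and 0.38 and 0.16 for H3-3B. Over both occasions H3-3A differed by 0.23 ± 0.14 (SE, adjusted p = 0.527) and H3-3B by 0.27 ± 0.14 (adjusted p = 0.424), neither called in limma. As percentages these were 17.5% and 20.9%. The other 2 H3 variant probes on the array were not detected.

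H2A.Z replaces H2A near gene starts and is also made from a pair of genes. H2AZ1 (H2AFZ, chromosome 4) gave 9157 and 10749.5 in A549/vec and 11030.5 and 10773 in A549/146b. The difference came from occasion 1 (0.27), as on occasion 2 it was 0.00, and A549/vec replicate 1 was the low value. H2AZ2 (H2AFV, chromosome 7) gave 120.0 and 119 against 139.9 and 121. There the high value was A549/146b replicate 1, with 0.22 on occasion 1 and 0.02 on occasion 2. Neither was called (adjusted p = 0.761 and 0.796 in limma), nor was H2AZ2 with neqc, which gave 0.20.

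MacroH2A variants carry a large extra domain and mark silent chromatin, the inactive X chromosome included. MACROH2A1 (H2AFY, chromosome 5) had 2 detected probes, annotated to different transcripts. The first (ILMN_1674034) gave 638 and 446 in A549/vec and 508 and 472 in A549/146b, so that A549/vec enclosed A549/146b. The second (ILMN_2373495) gave 8523 and 8001 against 8419 and 8326, with a log2 difference of 0.02 beside -0.12 for the first (adjusted p = 0.981 and 0.789 in limma). Both probes were below 0 on occasion 1 and above it on occasion 2. The values were -0.33 and 0.08 for the first, and -0.02 and 0.06 for the second. A further MACROH2A1 probe was not detected. MACROH2A2 (H2AFY2, chromosome 10) gave 1679 and 1387 in A549/vec and 1299 and 1383 in A549/146b, with log2 differences of -0.37 and -0.00 for the 2 occasions (adjusted p = 0.64 in limma).

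H2AJ (H2AFJ, chromosome 12), a variant of H2A that differs mostly in its tail, had a like pattern by occasion. It gave 2124 and 1716 in A549/vec and 1516 and 1700.3 in A549/146b, with -0.49 and -0.01 for the 2 occasions (adjusted p = 0.482 over both in limma). H2AX (H2AFX, chromosome 11), which is phosphorylated around DNA breaks, gave 456 and 324 against 337 and 402. Its direction turned, from -0.44 to 0.31. H1-10 (H1FX, chromosome 3), a linker histone made outside S phase, gave 679 and 538 against 429 and 582, and it also turned, from -0.66 to 0.11. Its A549/146b replicates were the lowest and the second highest of the 4 arrays. Over both occasions H1-10 differed by -0.28, the largest negative value of any histone, with an adjusted p of 0.424 in limma. As given above, the difference was larger once A549/vec replicate 2 was left out. Leaving out single arrays gave log2 differences from -0.50 to -0.05.

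The medians of the 2 classes lay close together. The median log2 difference over both occasions was 0.03 for the 16 replication-dependent probes and -0.02 for the 10 variant probes, beside -0.00 for all tested probes. The classes thus differed by 0.05. On occasion 1 the medians were -0.02 and -0.17, a gap of 0.15, and on occasion 2 they were 0.09 and 0.07, a gap of 0.02. The medians of both classes changed sign between the occasions, and as members are not replicates no test was made. The variant median was above 0 without A549/vec replicate 1 (0.10) and without A549/146b replicate 1 (0.01), and -0.17 without A549/vec replicate 2, while the replication-dependent median was 0.07 and -0.03 without A549/vec replicates 1 and 2, respectively. The gap between the classes turned to -0.03 without A549/vec replicate 1 and was 0.14 without A549/vec replicate 2. With H2AX counted as replication-dependent, the gap was 0.01. In size, the median variant difference without regard to sign was 0.35 on occasion 1 and 0.07 on occasion 2, whereas that of the replication-dependent probes was 0.11 and 0.16. All tested probes had 0.19 and 0.10, with an SD of 0.289 on occasion 1 and 0.163 on occasion 2.

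**Figure D3:**
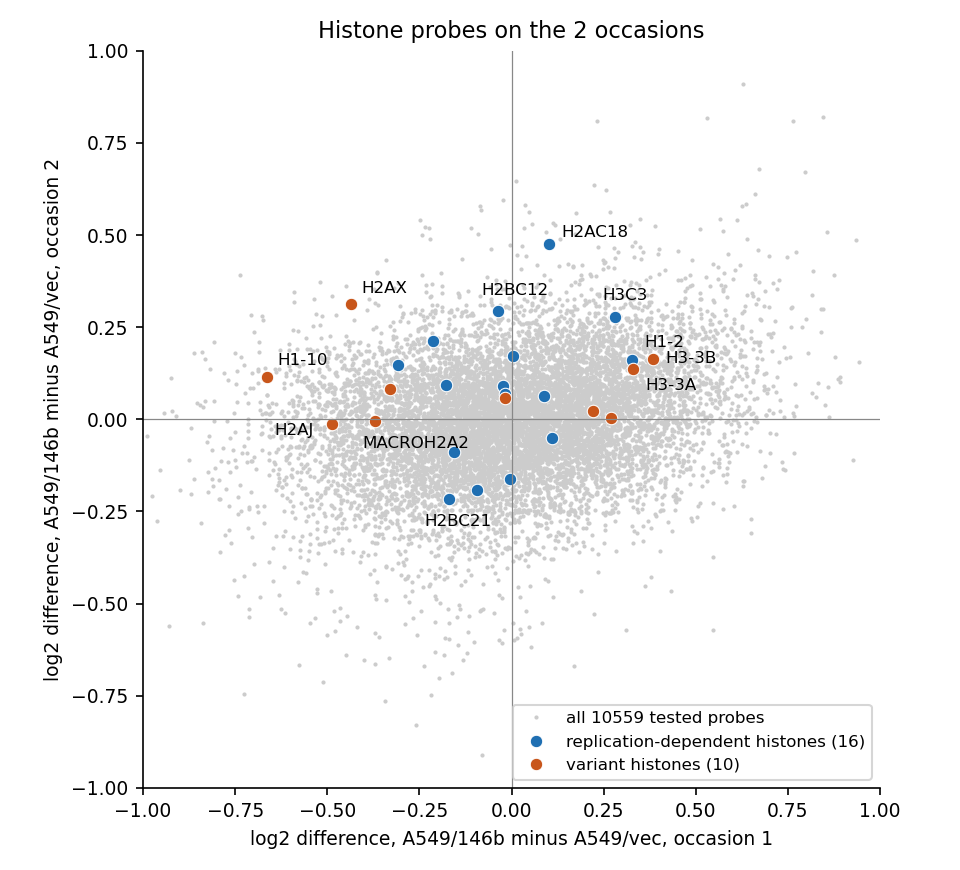
log2 difference, A549/146b minus A549/vec, on occasion 1 (x axis) against occasion 2 (y axis) for the 16 replication-dependent (blue) and 10 variant (orange) histone probes over all 10559 tested probes (grey), of which 8 lie beyond the axes. H3C3, H1-2, H3-3A and H3-3B lie above 0 on both occasions, H2BC21 lies below 0 on both, and H1-10 and H2AX lie below 0 on occasion 1 and above it on occasion 2.

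The spread between duplicates was of the same size as these differences. Going from A549/vec replicate 1 to replicate 2, the median log2 difference was -0.11 for replication-dependent and -0.18 for variant probes, against 0.01 for all tested probes, so that the middle histone of each class was higher on the array that stood apart. Between the A549/146b duplicates the same medians were -0.04, -0.02 and 0.00. For 18 of 26 histones (69.2%) the A549/vec duplicates differed by more than the cell-lines, as for 57.4% of all tested probes, and for 21 of 26 (80.8%) at least 1 pair of duplicates did, as for 71.5% of all.

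Genes that make, carry and use histones were read from lists, and none of their probes was called, where 0.928% of all tested probes were. The first list holds genes of histone mRNA processing and transcription, of which 18 of 22 were detected with 24 probes. None passed an unadjusted p of 0.05 in limma, which 12.2% of all tested probes did. Of the 24 probes, 11 were above and 13 below 0, and the median was -0.03. SLBP, which binds the stem-loop of histone mRNAs, gave 185 and 225 in A549/vec and 208 and 241 in A549/146b (0.13, adjusted p = 0.764 in limma). NPAT, a coactivator of histone gene transcription, was detected on 1 array only, with signals from 97.9 to 109.7 and a difference of 0.02. The 3 smallest p-values of the list belonged to CSTF2T (0.28), YY1 (0.26) and SYMPK (-0.26), with adjusted p-values of 0.414 to 0.451 in limma.

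Histone chaperones escort histones to DNA and away from it, and 27 of 33 were detected with 29 probes. Of these, 20 were below and 9 above 0, with a median of -0.09 (5332 of the 10559 tested probes were below 0), and 4 had an unadjusted p under 0.05 (12.2% of all tested probes did). IPO4, an importer of histones H3 and H4, gave 651 and 482 in A549/vec and 427 and 449 in A549/146b. ASF1B, which hands H3 and H4 to the replication fork, gave 315 and 258 against 220.3 and 245, and SET, a nucleosome assembly protein, gave 2027 and 2191 against 2787 and 2557. The cell-lines did not overlap for these 3 probes, which have the smallest p of the list, and the log2 differences were -0.36, -0.29 and 0.34, with adjusted p-values of 0.254 to 0.377 in limma. Most of the difference of IPO4 and ASF1B came from occasion 1 (-0.61 against -0.10, and -0.52 against -0.07). Over the whole list, A549/146b was above A549/vec without overlap for 3 of 29 probes and below for 13, where all tested probes had 22% each way.

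Genes of S phase, when replication-dependent histones are made, had 23 of 27 detected with 31 probes. Of these 23 were below and 8 above 0, with a median of -0.05, and 2 of 31 had an unadjusted p under 0.05, against 12.2% of all tested probes. Of all 10559 tested probes, 5332 were below 0. Without overlap, 1 of the S-phase probes was above and 9 were below, where all tested probes had 22% each way. The direction was the same on both occasions for 13 of the 31 (41.9%), against 58.4% of all tested probes. PCNA, the sliding clamp of replication, had 3 probes with log2 differences of 0.04, 0.11 and -0.03. FEN1, a nuclease that processes Okazaki fragments, gave 3824 and 3517 in A549/vec and 2919 and 2886 in A549/146b, a difference of -0.34 without overlap (adjusted p = 0.289 in limma). MCM7, a helicase subunit, had 3 probes, of which the lowest in p gave 1058 and 574 against 599.6 and 631, a difference of -0.34 that rested on A549/vec replicate 1 (-0.82 on occasion 1 and 0.14 on occasion 2). RRM2, a subunit of ribonucleotide reductase, differed by -0.27 (adjusted p = 0.423 in limma). Without A549/vec replicate 2, 1 probe of the first list, 2 of the chaperones and 3 of the S-phase genes were called, in the fit that called 8.22% of all.

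**Figure D4:**
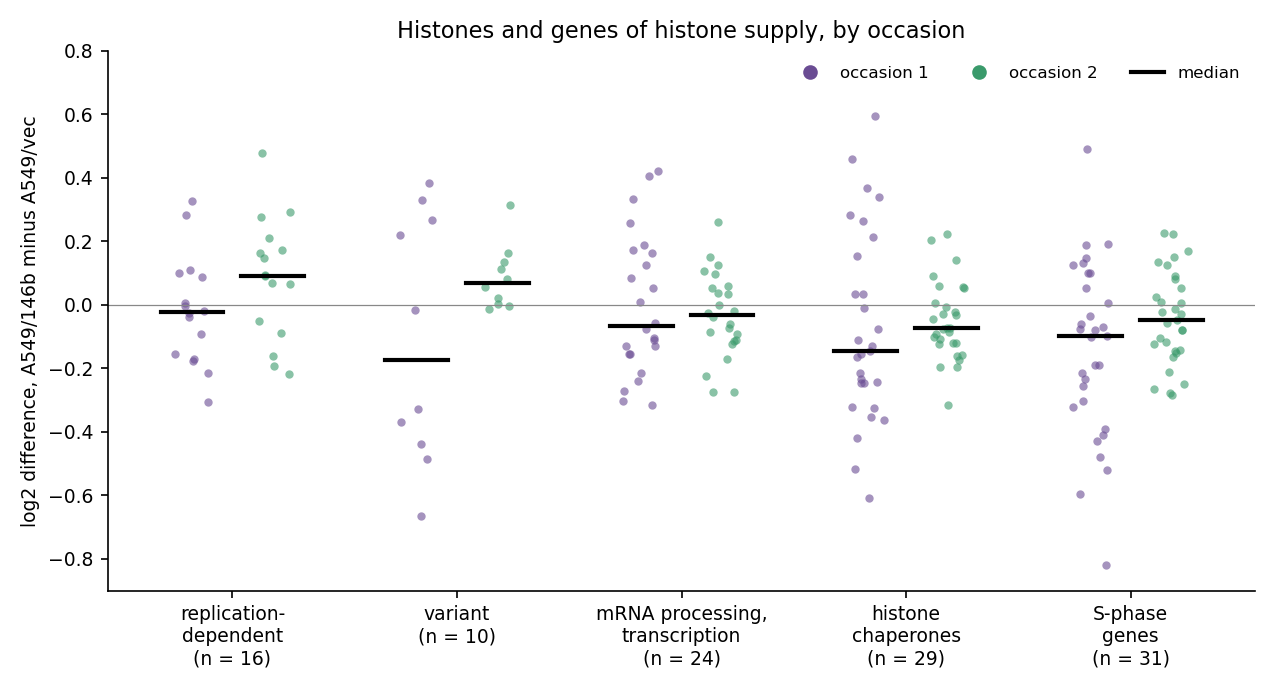
log2 difference, A549/146b minus A549/vec, of each detected probe on occasion 1 (purple) and occasion 2 (green), for the 2 histone classes and the 3 gene lists, with the number of probes under each name. Black bars are medians, which lay between -0.17 and 0.09, and the variant histones were the more spread out of the 2 classes on occasion 1.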

How the data were processed

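RNA of 2 A549/vec and 2 A549/146b cultures was labelled and hybridized by the authors. Their deposited intensity values are GenomeStudio signals and, from lumi 1.14 under R 2.11.1 per the labels, background-corrected, variance-stabilized and robust spline-normalized signals on a linear scale. Detection p-values were deposited beside each signal.

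Log2 of the normalized signals was tested here with limma 3.58.1 in R 4.3.3, two-sided, for detected probes (p under 0.01 on 1 array or more). As in the study's methods, the fit was paired by the replicate number, taken as the occasion of culture. Deviations of same-numbered arrays from their cell-line's mean correlated with r = -0.05, which does not show pairing. With 1 residual degree of freedom, standard errors rest on 1025 prior degrees of freedom (prior SD 0.143), a spread shared by all probes. The smallest permutation p of 2 against 2 arrays is 0.333, so none was used.

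The members, by their naming rule, and the gene lists were chosen with earlier results of these data known. Values by array are given for detected variant probes, the 12 detected replication-dependent probes with the smallest p, the 2 brightest of each family, and, of the lists, NPAT, SLBP, PCNA and the 3 smallest p-values, in part as differences only. Alternatives varied the block, normalization, filter, eBayes trend, arrays, probes per gene and the class of H2AX. A detection p limit of 0.05 was added after the data were seen.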

Additional observations from a re-analysis of the deposited data

How the results depend on the processing

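No histone was called by any alternative but 1, and the log2 differences of the histones had the same sign and the same side of the threshold in 268 of 284 values, the exceptions all coming from leaving out single arrays. Varying only the block, the filter or the eBayes trend leaves a probe's log2 difference as it is. In those runs its sign could not change, and only the side of the threshold could. Without the replicate block 12 of all tested probes were called, against 98 with it, and no histone was. Counts over all tested probes were 21 with neqc, 7 with median scaling, 33 for probes detected on all 4 arrays and 0 with no filter (1984 at an unadjusted p under 0.05), and ran from 12 to 868 when single arrays were left out. The cause was not tested. Leaving out single arrays gave 0 to 1 for histones, and for variant histones alike (H1-10, log2 difference -0.44, adjusted p = 0.0488 without A549/vec replicate 2). It gave 0 to 1 for the mRNA processing list, 0 to 2 for chaperones and 0 to 3 for S-phase genes, always highest without A549/vec replicate 2. The log2 differences of 11 probes changed sign then, with ranges of -0.16 to 0.16 for H2AC17, -0.21 to 0.046 for H2AC20, -0.014 to 0.19 for H2AC25, -0.11 to 0.18 for H2AC6, -0.039 to 0.089 for H2BC11, -0.28 to 0.032 for the first H2BC5 probe, -0.21 to 0.13 for H3C10, -0.048 to 0.11 for H4C8, -0.31 to 0.19 for H2AX, and -0.38 to 0.14 and -0.026 to 0.065 for the first and second MACROH2A1 probes. With single arrays left out, the lone array of a cell-line was assumed to vary like the rest. Class medians moved by less than the spread between occasions under every alternative run, though they could not move where only the block or the eBayes trend was varied. That spread is the SD of only 2 medians, 1 per occasion (0.080 for replication-dependent and 0.172 for variant histones). It was larger than the medians over both occasions, so that a change of sign also stayed within it. The variant median was 0.01 with median scaling and 0.02 with 1 probe per gene. Signals near background limit H3C3, H2AC17, H2AZ2, H2BC21 and H4C8, for which a change in transcript may be understated.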

Other observations

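Further histone genes on the array carry names outside the rule, and they were looked up after the values above were seen. CENPA, the H3 variant of centromeres, had 2 detected probes. The first gave 1661 and 1424 in A549/vec and 1582 and 1685 in A549/146b (log2 difference 0.09, adjusted p = 0.868 in limma), and the second gave 747 and 633 against 587 and 639 (-0.17, adjusted p = 0.695). The cell-lines overlapped for both probes, and the probes had opposite signs. H2BW1, a testis H2B histone, and H2BW4P were not detected.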
